A study of Homo sapiens with 36 samples.

Results

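The genes described here are 10 markers and regulators of the epithelial and mesenchymal states of a cell. They comprise the cadherins CDH1, CDH2, CDH3 and CDH6, the epithelial adhesion gene EPCAM, the mesenchymal genes VIM and FN1, and the transcription factors ZEB1, ZEB2 and SNAI2. They were chosen by symbol, matched to the NCBI gene number of each row, and make up 10 of the 18078 genes listed over 3 expression tables. All 10 were listed among the 16431 genes of the NT2/D1-A4 table. The table of 2102EP-C1 listed 17035 genes with 8 members, and that of the knockdown experiment 16459 genes with 7 members. On GRCh38.p14, CDH3 (chr16:68645310-68733771) and CDH1 (chr16:68737292-68835537) are neighbours. CDH2 is at chr18:27932879-28177130, CDH6 at chr5:31193686-31329146, EPCAM at chr2:47369311-47387020 and VIM at chr10:17228241-17237593. FN1 is at chr2:215360865-215436068, ZEB1 at chr10:31318417-31529804, ZEB2 at chr2:144384081-144520119 and SNAI2 on chromosome 8. ZEB1 and ZEB2 were listed only in the NT2/D1-A4 table and have no values in 2102EP-C1 cells. SNAI2 was listed in the tables of both GSK-J4 experiments.

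Cadherins are calcium-dependent adhesion proteins that join neighbouring cells, and their cytoplasmic ends are tied to the actin skeleton by catenins. During an epithelial-mesenchymal transition cells lower E-cadherin (CDH1) and other epithelial adhesion genes and raise N-cadherin (CDH2), the intermediate filament vimentin (VIM) and the matrix protein fibronectin (FN1). ZEB1, ZEB2 and SNAI2 (Slug) are among the repressors known for binding E-box sequences in the CDH1 promoter. Embryonal carcinoma, the stem cell-like component of testicular germ cell tumors (TGCTs), is a malignant counterpart of pluripotent cells, which hold together through E-cadherin and carry EPCAM on their surface.

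The study compared 12 arms of 3 libraries each, 36 in all, from human embryonal carcinoma lines. NT2/D1-A4 and 2102EP-C1 are cisplatin-resistant clones that were selected from the lines NT2/D1 and 2102EP, and every library, controls included, comes from one of these clones. In each line, 4 arms were an untreated control, cisplatin (0.5 µM for 6 h), GSK-J4 (1 µM for 3 days) and their combination with GSK-J4 given first. GSK-J4 inhibits KDM6A and KDM6B, the demethylases that remove the polycomb mark H3K27me3. In the knockdown experiment, 2102EP-C1 cells were transduced with the empty lentiviral plasmid pLKO.1 or with hairpins that target both demethylases (sh6A+6B), each without and with cisplatin at the same dose. RNA was collected 24 h after cisplatin. Each line is 1 clone, and each demethylase was targeted by 1 hairpin, with antibiotic selection of the transduced cells.

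Libraries held 26.8 to 49.5 M assigned reads (mega-reads) for NT2/D1-A4, 30.3 to 53.6 M for 2102EP-C1 and 79.4 to 100.9 M for the knockdown experiment. The replicate numbers do not say whether libraries came from separate cultures, so p-values measure only the spread between these libraries. GSK-J4 library 3 of 2102EP-C1 lay farther from its arm than any other of its table, by 0.0762 on average on the log2 scale against 0.0193 to 0.0484 for the other libraries, and results that rest on it are also given without it. The distances ran from 0.0104 to 0.0728 in NT2/D1-A4 cells and from 0.0144 to 0.0304 in the knockdown experiment. With sh6A+6B, KDM6A fell from 7.16, 7.17 and 7.15 to 6.14, 6.09 and 6.20 log2 CPM, the deposited measure of counts scaled to library size (CPM), and KDM6B fell from 4.61, 4.66 and 4.63 to 3.51, 3.61 and 3.75. With GSK-J4, KDM6B rose by 0.88 (SE 0.06) in NT2/D1-A4 and by 0.81 (SE 0.07) in 2102EP-C1 on the log2 scale. The embryonal carcinoma genes POU5F1, SOX2, NANOG and LIN28A were measured in every arm.

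The first question was how far the resistant lines differ in these genes before any treatment. Per kb of transcript, EPCAM was the highest member in untreated 2102EP-C1 cells at 377 ± 4.58 CPM per kb (SD, n = 3), followed by CDH1 at 89.9 ± 1.26 and CDH3, the placental cadherin of epithelial cells, at 36.7 ± 0.236. VIM followed at 13.9 ± 0.673, FN1 at 8.13 ± 0.444 and CDH2 at 6.00 ± 0.232 CPM per kb. CDH6, a cadherin of kidney and neural crest, stood at 0.0781 ± 0.0162 and SNAI2 at 0.0685 ± 0.0228 CPM per kb. The libraries of CDH6 and SNAI2 overlapped, while those of the other neighbours in this order did not. The pLKO.1 cells had the same order for the 7 members listed there, from EPCAM at 361 ± 1.74 to CDH6 at 0.170 ± 0.0108 CPM per kb.

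In untreated NT2/D1-A4 cells the order was led by VIM, at 545 ± 14.1 CPM per kb. EPCAM stood at 42.8 ± 0.833, CDH2 at 31.0 ± 1.25, CDH1 at 11.4 ± 0.185 and CDH3 at 10.99 ± 0.110 CPM per kb. Below them were ZEB2 at 6.87 ± 0.102, FN1 at 3.17 ± 0.256, ZEB1 at 1.87 ± 0.207, CDH6 at 0.356 ± 0.0243 and SNAI2 at 0.157 ± 0.0308. No neighbours in this order overlapped between their libraries, with CDH1 from 11.2 to 11.6 and CDH3 from 10.9 to 11.1 CPM per kb the closest.

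**Figure D1:**
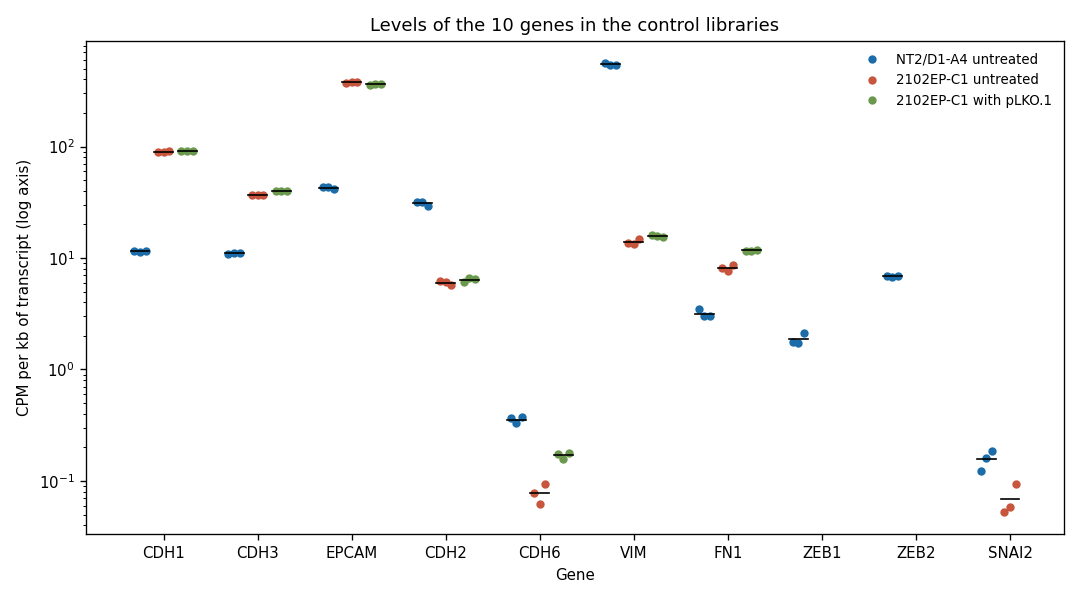
Levels of the 10 genes in the control libraries, in CPM per kb of transcript on a log axis, with 1 point per library and a black line at the arm mean (n = 3). VIM is the highest gene in NT2/D1-A4 cells at 545 CPM per kb, and EPCAM the highest in 2102EP-C1 cells at 377 and in pLKO.1 cells at 361. The 3 tables were normalized separately.

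Because the 3 tables were normalized separately, the lines were compared on reads recovered from the tables and scaled together, over the 15050 genes listed in all 3. A gene is called changed where the fold change is over 1.3 (0.38 on the log2 scale) and the Benjamini-Hochberg adjusted p of limma is under 0.05 over all genes tested. Of these 15050 genes, 52.1% were called between the untreated lines (24.6% higher and 27.5% lower in NT2/D1-A4), and all 7 members tested were. VIM was higher in NT2/D1-A4 by 5.31 (SE 0.03, adjusted p = 2.4e-50) on the log2 scale, which is 39.6-fold. CDH2 was higher there by 2.39 (SE 0.06, adjusted p = 1.2e-29) and CDH6 by 2.14 (SE 0.13, adjusted p = 1.2e-17). The members higher in 2102EP-C1 cells were EPCAM (-3.12, SE 0.03, adjusted p = 7e-42), CDH1 (-2.95, SE 0.03, adjusted p = 2.4e-43), CDH3 (-1.72, SE 0.04, adjusted p = 3.4e-32) and FN1 (-1.34, SE 0.05, adjusted p = 3.4e-23). FN1 was thus higher in the line with more CDH1 and EPCAM, unlike VIM and CDH2. ZEB1 and ZEB2 were not tested, as neither is listed for 2102EP-C1 cells. The authors state that they removed genes that did not pass 0.5 CPM in 2 or more libraries. Not every listed gene passes that limit, as AFP in 2102EP-C1 cells reached 0.455 CPM at most, in the combination arm. SNAI2 was tested over the 24 libraries of the GSK-J4 experiments, an addition made after seeing the data, and was 0.89 higher for NT2/D1-A4 (SE 0.31, adjusted p = 0.01, with 50.8% of 15663 genes called). Line and experiment cannot be told apart in these values, since each line was run in its own experiment.

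The regulatory sequence before the start site is shown for CDH2, FN1 and VIM. With ZEB1, these are the members called in at least 1 pretreatment comparison for which a window was at hand. Such sequence is of interest because KDM6A and KDM6B act on chromatin and polycomb complexes favour promoters rich in CG dinucleotides. RefSeq windows on GRCh38.p14 were at hand for CDH2, VIM, FN1, ZEB1 and ZEB2, and the 250 bases before the start are given 5′ to 3′ on the strand of the gene. CG dinucleotides are in capitals for CDH2 (chr18:28177131-28177380, minus strand), FN1 (chr2:215436069-215436318, minus strand) and VIM (chr10:17227991-17228240, plus strand).
CDH2: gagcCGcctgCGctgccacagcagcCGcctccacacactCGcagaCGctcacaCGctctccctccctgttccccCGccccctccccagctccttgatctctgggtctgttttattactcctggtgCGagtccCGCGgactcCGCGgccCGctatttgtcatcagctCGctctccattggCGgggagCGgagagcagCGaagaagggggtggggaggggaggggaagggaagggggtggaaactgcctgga
FN1: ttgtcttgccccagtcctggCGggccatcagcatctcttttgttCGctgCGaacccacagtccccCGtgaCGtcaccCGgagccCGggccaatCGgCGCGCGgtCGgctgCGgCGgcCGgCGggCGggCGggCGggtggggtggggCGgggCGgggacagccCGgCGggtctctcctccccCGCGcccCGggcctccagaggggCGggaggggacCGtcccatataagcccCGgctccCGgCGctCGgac
VIM: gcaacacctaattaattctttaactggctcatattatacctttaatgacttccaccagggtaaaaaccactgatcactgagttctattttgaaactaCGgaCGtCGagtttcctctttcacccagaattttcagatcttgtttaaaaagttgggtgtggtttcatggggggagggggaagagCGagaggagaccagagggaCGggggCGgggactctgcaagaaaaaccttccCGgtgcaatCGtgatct
This CDH2 window holds 17 CG dinucleotides, that of FN1 32 and that of VIM 8, beside a median of 11 over 35116 windows of the same length. CDH2 has a second window, at an inner start site (chr18:28036642-28036891, minus strand, not shown), which holds 4. The windows of ZEB1 hold from 7 to 27 CG dinucleotides. The letters CAGGTG or CACCTG, the E-box form bound by ZEB and SNAI factors read on either strand, were in none of the windows of CDH2, FN1 and VIM. Of all windows, 17.5% hold these letters. They were found in 2 of the 7 windows of ZEB1, which has several start sites. The window at chr10:31318966-31319215 (plus strand) holds 2 of them, shown in capitals.
ZEB1: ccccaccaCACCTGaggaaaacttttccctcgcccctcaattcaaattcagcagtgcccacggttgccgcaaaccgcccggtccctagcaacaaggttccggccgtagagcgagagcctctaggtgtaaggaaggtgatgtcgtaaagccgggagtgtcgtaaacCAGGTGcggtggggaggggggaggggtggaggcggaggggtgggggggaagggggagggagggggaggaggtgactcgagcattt
A match of letters is a description and shows no binding. CDH1, CDH3, CDH6, EPCAM and SNAI2 are not shown.

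The second question was what GSK-J4 alone does to these genes in NT2/D1-A4 cells. CDH1 and EPCAM fell, and CDH2, CDH6, FN1, ZEB1 and SNAI2 rose, which makes 7 of 10 members called beside 20.3% of all 16431 genes (13.8% rose and 6.48% fell). CDH3, VIM and ZEB2 were not called.

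CDH1 was at 5.79, 5.76 and 5.80 log2 CPM in the untreated libraries and at 5.27, 5.29 and 5.34 with GSK-J4. The arms did not overlap, and CDH1 fell to 0.717 times its level (log2 change -0.48, SE 0.04, adjusted p = 4.3e-08). EPCAM went from 6.07, 6.06 and 6.02 to 5.65, 5.64 and 5.63 log2 CPM (log2 change -0.41, SE 0.05, adjusted p = 2.4e-06). The change in EPCAM lay close to the fold limit and was -0.36 with library totals in place of TMM scaling, which ends the call. CDH3 had values of 5.60, 5.62 and 5.62 log2 CPM without and 5.29, 5.38 and 5.40 with GSK-J4. Its libraries did not overlap either, but the difference of -0.26 (SE 0.05, adjusted p = 0.00025) was under the fold limit.

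CDH2 was at 6.99, 7.0002 and 6.89 log2 CPM without GSK-J4 and at 7.26, 7.42 and 7.43 with it. All 3 treated libraries were above the controls, a 1.33-fold rise (log2 change 0.41, SE 0.04, adjusted p = 3.2e-07). Without control library 3 the change was 0.378126 on the log2 scale, just under the fold limit of 0.378512. CDH6 went from 1.68, 1.53 and 1.71 to 3.00, 3.00 and 3.10 log2 CPM. This 2.62-fold rise (log2 change 1.39, SE 0.09, adjusted p = 2.1e-10) rested on 95 to 119 reads per control library and 250 to 394 per treated library.

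Among the mesenchymal genes, FN1 had 4.87, 4.66 and 4.67 log2 CPM in the controls and 5.18, 5.43 and 5.39 with GSK-J4, and rose 1.51-fold (log2 change 0.60, SE 0.07, adjusted p = 7.7e-07). VIM differed the other way, from 10.24, 10.17 and 10.18 log2 CPM without to 9.89, 9.97 and 9.93 with GSK-J4. That difference of -0.27 (SE 0.04, adjusted p = 5e-06) was under the fold limit, although the libraries did not overlap. Vimentin therefore did not move with CDH2, CDH6 and FN1 in this line.

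Of the transcription factors, SNAI2 rose most, but by the authors' stated filter it was listed only because of the arms with GSK-J4. Its levels were 0.27, 0.35 and 0.40 CPM untreated and 0.61, 0.32 and 0.38 CPM with cisplatin. The authors state that they kept genes past 0.5 CPM in 2 or more libraries. By that filter, a rise was in part a condition of being listed. The same holds for its rise with GSK-J4 under cisplatin. SNAI2 had 9, 15 and 12 reads in the control libraries and 40, 66 and 54 with GSK-J4, or -1.50, -1.20 and -1.04 against 0.43, 0.49 and 0.37 log2 CPM. The rise was 3.2-fold on the log2 scale with a prior count of 3 (log2 change 1.68, SE 0.23, adjusted p = 6.8e-06). ZEB1 was at 3.40, 3.37 and 3.65 log2 CPM in controls and at 3.82, 3.96 and 3.80 with GSK-J4, 1.31-fold up (log2 change 0.38, SE 0.08, adjusted p = 0.00045). The ZEB1 call lay at the fold limit and was lost without control library 1 (0.35), control library 2 (0.33) or GSK-J4 library 2 (0.34). ZEB2 showed overlapping arms, with 6.01, 5.97 and 6.00 against 5.92, 5.98 and 5.92 log2 CPM (log2 change -0.05, 95% interval -0.13 to 0.02, adjusted p = 0.25).

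**Figure D2:**
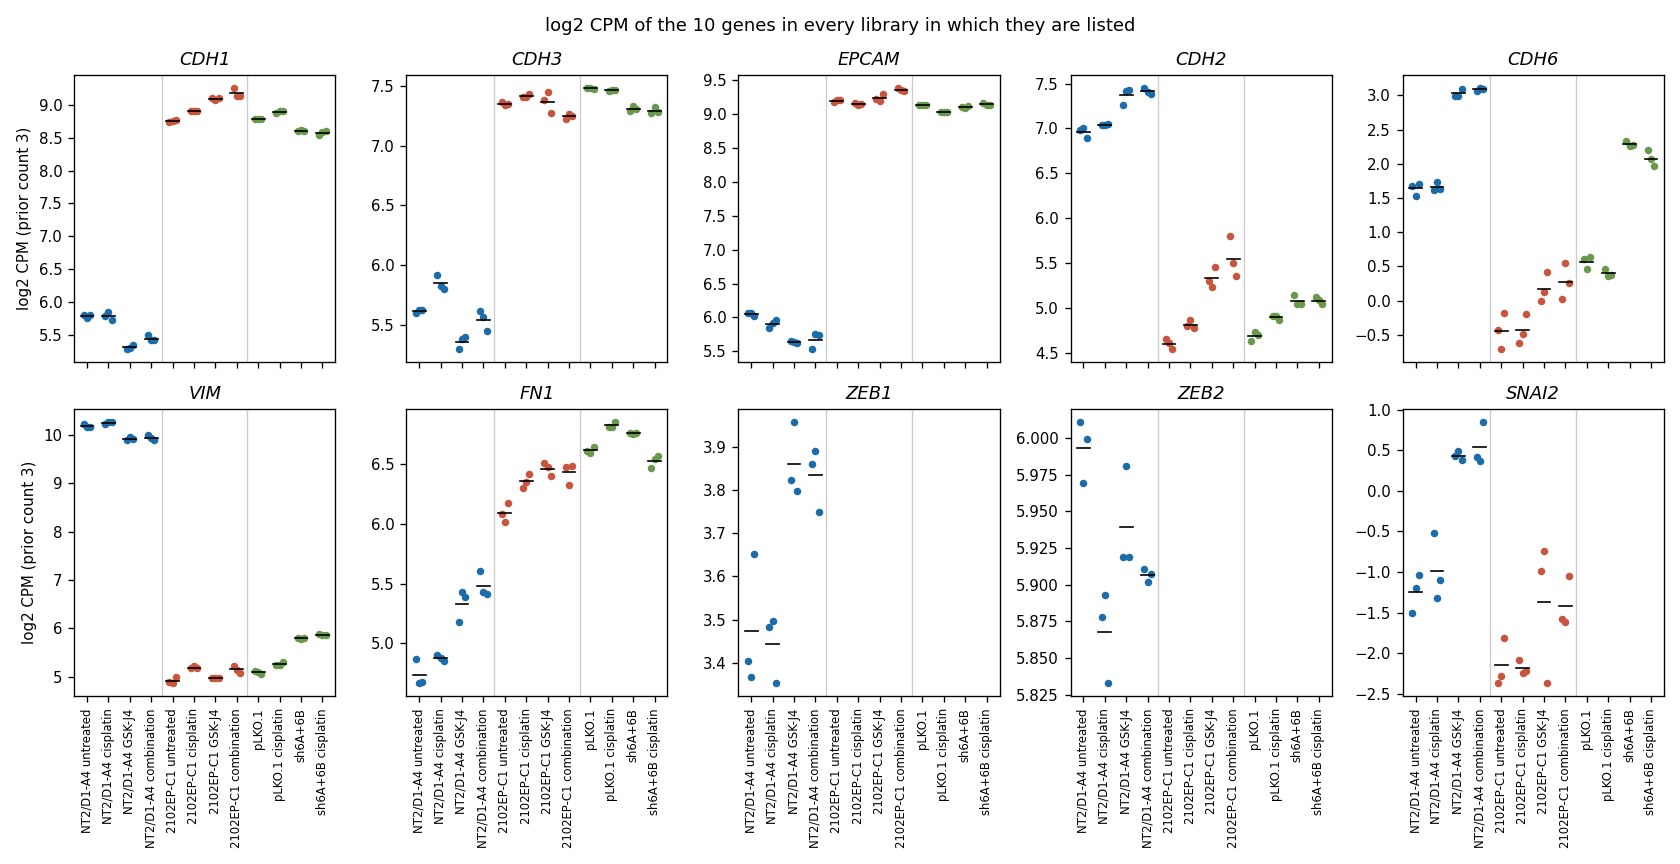
log2 CPM of the 10 genes in every library in which they are listed, with 1 point per library, a black line at each arm mean (n = 3), vertical lines between the experiments and a separate vertical scale for each gene. CDH1 is lower under GSK-J4 in NT2/D1-A4 cells (5.27 to 5.34 against 5.76 to 5.80) and higher with GSK-J4 in 2102EP-C1 cells (9.07 to 9.11 against 8.74 to 8.78).

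In 2102EP-C1 cells GSK-J4 alone raised CDH2 and CDH6, 2 of the 8 members listed, beside 10.9% of all 17035 genes called (7.79% rose and 3.12% fell). No member fell. CDH2 went from 4.65, 4.60 and 4.54 to 5.30, 5.23 and 5.46 log2 CPM, a 1.66-fold rise (log2 change 0.73, SE 0.07, adjusted p = 1e-08). The arms were far apart, and the change was 0.67 (adjusted p = 1.7e-07) without GSK-J4 library 3. CDH6 was at the lower end of what these libraries could measure, with 23, 21 and 43 reads in controls and 28, 33 and 44 with GSK-J4. Its change of 0.62 (SE 0.21, adjusted p = 0.026) rested on single libraries: the adjusted p was 0.057 without control 1, 0.13 without control 2 and 0.11 without GSK-J4 library 3.

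CDH1 was at 8.74, 8.75 and 8.78 log2 CPM in untreated 2102EP-C1 cells and at 9.10, 9.07 and 9.11 with GSK-J4. The treated libraries were all higher, by 0.34 (SE 0.03, adjusted p = 3e-09), which is 1.26-fold and under the fold limit. FN1 was likewise higher in each treated library, at 6.51, 6.48 and 6.40 against 6.09, 6.02 and 6.17 log2 CPM (log2 change 0.37, SE 0.05, adjusted p = 4.7e-07). FN1 passed the fold limit with library totals (0.38) and without control library 3 (0.41) or GSK-J4 library 3 (0.40). EPCAM (0.04, 95% interval -0.02 to 0.10), VIM (0.06, -0.03 to 0.16) and CDH3 (0.02, -0.06 to 0.09) had arms that overlapped and adjusted p of 0.32, 0.32 and 0.76. SNAI2 had 4, 5 and 11 reads in controls and 13, 17 and 4 with GSK-J4, where library 3 was the low one. Its change was 0.78 (SE 0.37, adjusted p = 0.1), and 1.29 (adjusted p = 0.0053) without that library. The highest SNAI2 library was at 0.0947 CPM per kb in controls, 0.0717 with cisplatin, 0.238 with GSK-J4 and 0.186 with the combination. A rise of SNAI2 may thus in part be a condition of being listed in this line too.

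The difference between the lines in the response to GSK-J4 was then tested in the joint table, where 12.6% of 15050 genes were called. CDH1 differed most firmly, by -0.83 (SE 0.04, adjusted p = 1.1e-17), as it fell in NT2/D1-A4 cells and was higher with GSK-J4 in 2102EP-C1 cells. EPCAM differed by -0.46 (SE 0.05, adjusted p = 2.9e-09). For CDH6 the effect was 0.76 larger for NT2/D1-A4 (SE 0.19, adjusted p = 0.0014) on the log2 scale with a prior count of 3, which understates the change of low genes. The other members differed by less than the fold limit: VIM by -0.34, CDH2 by -0.33, CDH3 by -0.28 and FN1 by 0.22, with adjusted p of 5.9e-07, 0.0029, 5.3e-05 and 0.025. Without GSK-J4 library 3 of 2102EP-C1, FN1 differed by 0.18 (adjusted p = 0.077) and CDH2 by -0.27 (adjusted p = 0.017). Over 24 libraries, the SNAI2 effects of the lines differed by 0.92 (SE 0.44, adjusted p = 0.12, with 10.6% of genes called). In both lines SNAI2 was highest in arms with GSK-J4, so these effects may in part be a condition of its listing. In bulk RNA of this kind, a smaller share of cells with a transcript and less of it per cell cannot be told apart.

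**Figure D3:**
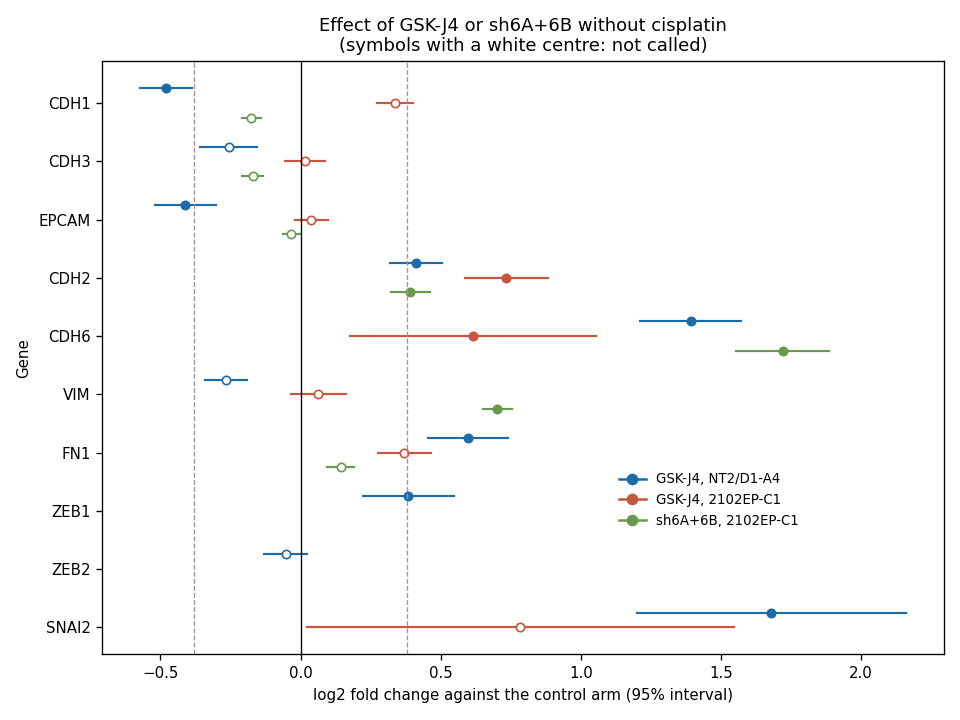
log2 fold change of each gene with GSK-J4 in both lines and with sh6A+6B in 2102EP-C1 cells, all without cisplatin, with 95% intervals from limma. Filled symbols passed the thresholds, and dashed lines mark the fold limit of 1.3. CDH2 and CDH6 are filled in all 3 comparisons, CDH1 lies at -0.48, 0.34 and -0.18, and VIM at -0.27, 0.06 and 0.70.

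The third question was whether knockdown of both demethylases changes the same genes as the inhibitor. With sh6A+6B alone, CDH6, VIM and CDH2 rose, 3 of 7 members beside 12.1% of all 16459 genes (6.34% rose and 5.74% fell). CDH6 went from 0.61, 0.47 and 0.64 to 2.33, 2.27 and 2.27 log2 CPM, or from 119 to 146 reads per library to 382 to 449. This 3.29-fold rise (log2 change 1.72, SE 0.08, adjusted p = 1.9e-14) was the largest of any member in this experiment. VIM went from 5.12, 5.10 and 5.06 to 5.80, 5.79 and 5.80 log2 CPM, a 1.63-fold rise (log2 change 0.70, SE 0.02, adjusted p = 1.1e-16). CDH2 had values of 4.63, 4.73 and 4.70 with pLKO.1 and 5.14, 5.04 and 5.04 with sh6A+6B (log2 change 0.39, SE 0.03, adjusted p = 6.1e-10). Its arms did not overlap, but the call was lost without pLKO.1 library 1 (0.36) or sh6A+6B library 1 (0.36).

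The epithelial members were lower by less than the fold limit with sh6A+6B. CDH1 was at 8.79, 8.78 and 8.78 log2 CPM with pLKO.1 and at 8.61, 8.62 and 8.60 with sh6A+6B (log2 change -0.18, SE 0.02, adjusted p = 3.5e-09). CDH3 was at 7.48 in all pLKO.1 libraries and at 7.29, 7.33 and 7.30 with sh6A+6B (log2 change -0.17, SE 0.02, adjusted p = 2.9e-08). These differences were small but larger than the spread, as no library of one arm reached the other. EPCAM differed by -0.03 (95% interval -0.06 to -0.00307, adjusted p = 0.059) and FN1 by 0.14 (SE 0.02, adjusted p = 1.7e-05).

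The sh6A+6B and GSK-J4 effects in 2102EP-C1 cells were compared in the joint table, a test added after seeing the data that called 13.6% of 15050 genes. CDH6 rose more with sh6A+6B, by 1.08 (SE 0.19, adjusted p = 1.6e-05), and 1.197 without GSK-J4 library 3. VIM also rose more, by 0.64 (SE 0.05, adjusted p = 1e-13). CDH1 differed by -0.51 (SE 0.04, adjusted p = 2.9e-12), being higher with GSK-J4 and lower with sh6A+6B. CDH2 differed by -0.34 and FN1 by -0.22, under the fold limit, with adjusted p of 0.0025 and 0.024. CDH2 passed the limit (-0.38) without GSK-J4 library 2. Experiment, vector and inhibitor cannot be told apart in these values, since each has its own control.

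Cisplatin alone called none of these genes in any experiment, by limma-trend or by voom. The share of all genes called was 2.45% for NT2/D1-A4, 1.07% for 2102EP-C1 and 3% for the knockdown experiment. At the looser limit of an unadjusted p under 0.05 there were 3 of 10, 4 of 8 and 6 of 7 members. The share of all genes at that limit was not counted, so these counts have no background. In 2102EP-C1 cells the largest values were VIM at 0.28 (SE 0.05, adjusted p = 0.00054) and FN1 at 0.26 (SE 0.05, adjusted p = 0.00066). In pLKO.1 cells FN1 was 0.21 (SE 0.02, adjusted p = 1.9e-07), CDH2 0.21 (SE 0.03, adjusted p = 2.6e-05) and VIM 0.16 (SE 0.02, adjusted p = 2.2e-05) higher with cisplatin. In NT2/D1-A4 cells CDH3 was 0.23 higher (SE 0.05, adjusted p = 0.0056).

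Cisplatin also called none of them in cells that had received GSK-J4 or sh6A+6B, by either method. There 0.377%, 2.22% and 3.52% of all genes were called. At an unadjusted p under 0.05, where all genes were not counted, there were 3 of 10, 5 of 8 and 4 of 7 members. The effects of cisplatin with and without pretreatment were then compared directly. FN1 in the knockdown experiment was the single member called, beside 3.77% of genes there. It was at 6.61, 6.59 and 6.64 log2 CPM with pLKO.1 and 6.81, 6.81 and 6.85 with pLKO.1 and cisplatin, but at 6.76, 6.75 and 6.76 with sh6A+6B and 6.47, 6.54 and 6.57 with sh6A+6B and cisplatin. Fibronectin transcripts were thus higher with cisplatin in vector cells and lower with cisplatin in knockdown cells, and the effects differed by -0.44 (SE 0.03, adjusted p = 2.6e-10). FN1 differed in the same direction in the GSK-J4 experiment of this line, by -0.30 (SE 0.06, adjusted p = 0.015), under the fold limit. In NT2/D1-A4 cells the value for FN1 was 0.01 (95% interval -0.19 to 0.21, adjusted p = 0.99). No member was called in either GSK-J4 experiment for this difference (limma-trend and voom), beside 0.0426% and 0.857% of genes called. At an unadjusted p under 0.05, where all genes were not counted, there were 2 of 10 and 3 of 8 members.

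**Figure D4:**
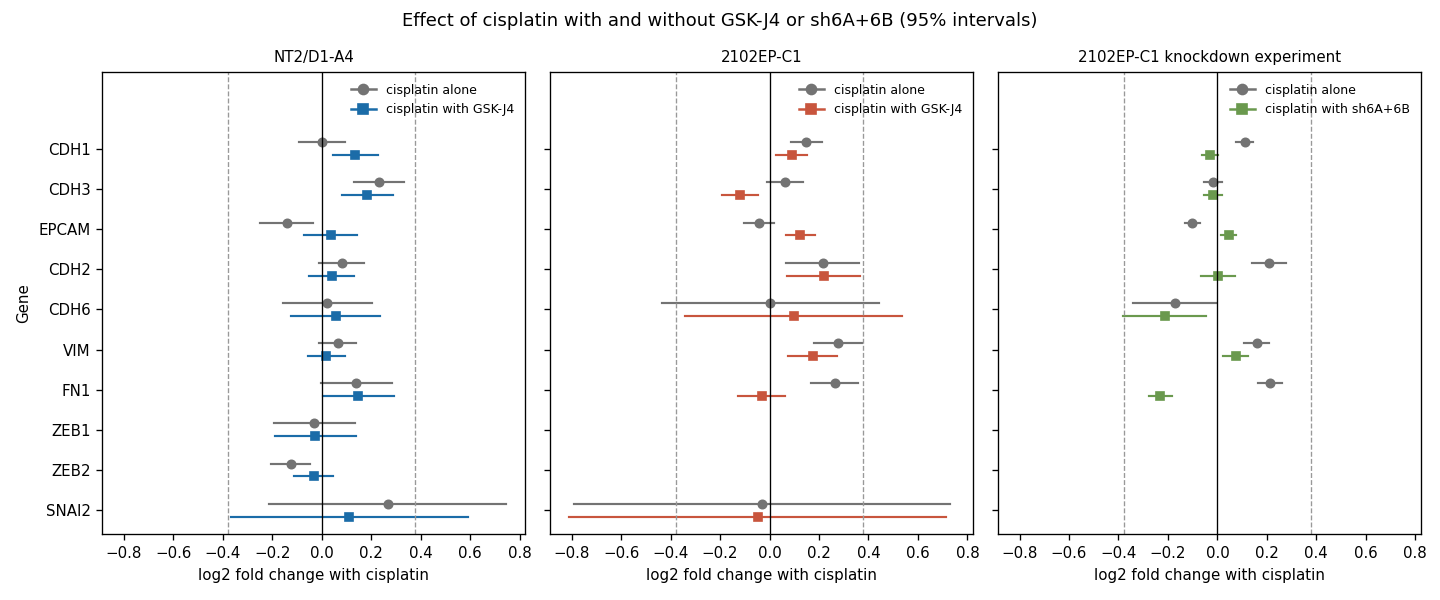
log2 fold change with cisplatin for each gene, without pretreatment (grey circles) and with GSK-J4 or sh6A+6B (coloured squares), with 95% intervals and dashed lines at the fold limit of 1.3. All values lie within the limit, and FN1 goes from 0.21 to -0.23 in the knockdown experiment.

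Under cisplatin, CDH6 rose with GSK-J4 or sh6A+6B in all 3 experiments. In NT2/D1-A4 cells CDH6 (1.43, SE 0.09), SNAI2 (1.52, SE 0.23), FN1 (0.61, SE 0.07) and ZEB1 (0.39, SE 0.08) rose, 4 of 10 members beside 20.7% of genes (12.8% rose and 7.84% fell). Their adjusted p were 1.8e-10, 2.2e-05, 7.2e-07 and 0.00043. ZEB1 lay at the fold limit again, with values of 0.34, 0.38 and 0.36 without cisplatin library 3, combination library 1 or combination library 2. CDH2 (0.37), CDH1 (-0.35), VIM (-0.31), CDH3 (-0.31) and EPCAM (-0.23) were under the limit with adjusted p of 1.2e-06, 2.9e-06, 7.9e-07, 4.5e-05 and 0.00095. CDH2 passed the limit with library totals (0.40) or without combination library 3 (0.39).

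In 2102EP-C1 cells under cisplatin, CDH2 (0.74, SE 0.07, adjusted p = 4.3e-09) and CDH6 (0.71, SE 0.21, adjusted p = 0.0072) rose, 2 of 8 members beside 19.3% of genes (10.5% rose and 8.82% fell). CDH2 was highest in combination library 1, at 5.80 log2 CPM against 5.50 and 5.35 in the others. The CDH6 call was lost without combination library 2 (0.57, adjusted p = 0.053). SNAI2 had a value of 0.77 (SE 0.37, adjusted p = 0.089), with an adjusted p of 0.041 when GSK-J4 library 3 was left out of the shared estimate of the spread. As with GSK-J4 alone, a higher SNAI2 value here may in part be a condition of being listed. In the knockdown experiment CDH6 (1.68, SE 0.08, adjusted p = 1.5e-14) and VIM (0.62, SE 0.02, adjusted p = 5.6e-16) rose, 2 of 7 members beside 15.2% of genes (6.4% rose and 8.77% fell). CDH1 differed by -0.32 (SE 0.02, adjusted p = 5.3e-14) and FN1 by -0.30 (SE 0.02, adjusted p = 8e-11), under the limit.

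The other genes of the adhesion and transition programme were taken from lists and are described by their counts, to be read beside the 20.3%, 10.9% and 12.1% of all genes called with GSK-J4 in NT2/D1-A4, with GSK-J4 in 2102EP-C1 and with sh6A+6B. Of the 13 other cadherins measured in NT2/D1-A4 cells, 3 rose and 1 fell with GSK-J4, with a list median of 0.000841 beside 0.00836 over all genes. CDH8 rose in all 3 experiments, by 1.41 (SE 0.08) and 0.40 (SE 0.07) under GSK-J4 in NT2/D1-A4 and 2102EP-C1 and by 0.54 (SE 0.04) with sh6A+6B. CDH4 (R-cadherin) rose by 0.82 (SE 0.13) under GSK-J4 in NT2/D1-A4 cells and fell by 0.60 (SE 0.10) with sh6A+6B. In 2102EP-C1 cells CDH8 was the single call of 12, and with sh6A+6B 4 of 13 rose and 2 fell. Among 18 catenins and adherens junction partners 3 rose under GSK-J4 in NT2/D1-A4 cells, 1 rose and 1 fell in 2102EP-C1 cells, and 3 rose with sh6A+6B, shares near those backgrounds. CTNNA3, an alpha-catenin that links cadherins to actin, was among the rises each time (0.90, SE 0.14; 0.63, SE 0.15; 0.65, SE 0.07).

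The junction genes did not all go the way of CDH1 in NT2/D1-A4 cells. Of 19 tight junction and desmosome genes 5 rose and 2 fell with GSK-J4 there, and 5 of 20 rose in 2102EP-C1 cells, beside 20.3% and 10.9% of all genes called. The desmosomal cadherin DSC3 rose by 2.32 (SE 0.11) and 0.77 (SE 0.07), the tight junction genes CLDN1 by 1.99 (SE 0.09) and 0.74 (SE 0.10) and OCLN by 1.00 (SE 0.07) and 0.66 (SE 0.05) in NT2/D1-A4 and then 2102EP-C1. CGN, which encodes the junction scaffold protein cingulin, fell in NT2/D1-A4 cells by 0.43 (SE 0.07) on the log2 scale. With sh6A+6B, TJP3 was the single call of 20 (-0.40, SE 0.04). The list medians were 0.20, 0.20 and 0.02 in the order of these experiments.

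Epithelial regulators and epithelial genes were called in shares near the 20.3% and 10.9% of all genes in the lines, and below the 12.1% with sh6A+6B. In NT2/D1-A4 cells 2 of 16 rose, MAL2 (1.48, SE 0.10) and PRSS8 (0.59, SE 0.05), and 2 fell, ESRP1 (-0.84, SE 0.05), an epithelial splicing factor, and AP1M2 (-0.69, SE 0.08), a sorting adaptor. In 2102EP-C1 cells 3 of 23 rose, MAL2 (1.2997, SE 0.05) among them, and KRT8, a keratin of simple epithelia, fell (-0.41, SE 0.03). With sh6A+6B the single call of 23 was OVOL1 (-0.42, SE 0.08), an epithelial transcription factor.

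The other mesenchymal genes form the longest of these lists. With GSK-J4, 10 of 25 rose and 3 fell in NT2/D1-A4 cells, and 12 of 26 rose and 1 fell in 2102EP-C1 cells, beside 20.3% and 10.9% of all genes called. The collagen receptor DDR2 rose by 3.55 (SE 0.15) and 3.74 (SE 0.11) and smooth muscle actin ACTA2 by 2.13 (SE 0.15) and 1.39 (SE 0.16). With sh6A+6B, beside 12.1% of all genes called, 8 of 26 rose, led by LOX (1.07, SE 0.11), TAGLN (0.72, SE 0.04) and MMP2 (0.64, SE 0.02), and 4 fell, with AXL (-0.82, SE 0.04) the furthest. The list medians were 0.28, 0.33 and 0.14.

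Of 8 other transition transcription factors measured, 2 rose and 1 fell under GSK-J4 in NT2/D1-A4 cells, 1 rose in the 2102EP-C1 line, and 3 rose and 1 fell with sh6A+6B, beside 20.3%, 10.9% and 12.1% of all genes. FOXC1 rose (1.00, SE 0.15) and TCF3 fell (-0.44, SE 0.05) in NT2/D1-A4 cells, and TWIST1 rose with sh6A+6B (1.503, SE 0.12). In the TGF-beta list, a pathway that drives the transition in many epithelia, 3 of 14 rose under GSK-J4 in NT2/D1-A4 cells, 1 rose and 1 fell in 2102EP-C1 cells, and SMAD2 (-0.41, SE 0.02) was the single call with sh6A+6B, shares near or below those of all genes. The ligand TGFB1 rose with GSK-J4 in both lines (0.50, SE 0.07; 0.61, SE 0.15). Without GSK-J4 library 3, the 2102EP-C1 counts were 10 rises and 1 fall for the other mesenchymal genes, 5 rises for tight junctions and desmosomes and 1 rise for the other cadherins, beside 7.56% of all genes that rose and 2.59% that fell. The other lists then gave 2 rises for the catenins and partners, 2 rises and 1 fall for the epithelial genes, the single transcription factor call lost and 2 rises for TGF-beta, so that calls of NECTIN1, KRT7 and TGFB3 rested on that library. Of 8 proteases that cleave cadherins or EPCAM, BACE1 (0.45, SE 0.06) in 2102EP-C1 cells was the single call over the 3 pretreatments. With cisplatin alone 4 of 25, 6 of 26 and 4 of 26 other mesenchymal genes rose for NT2/D1-A4, 2102EP-C1 and pLKO.1 and none fell, beside 2.45%, 1.07% and 3% of all genes called with cisplatin.

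**Figure D5:**
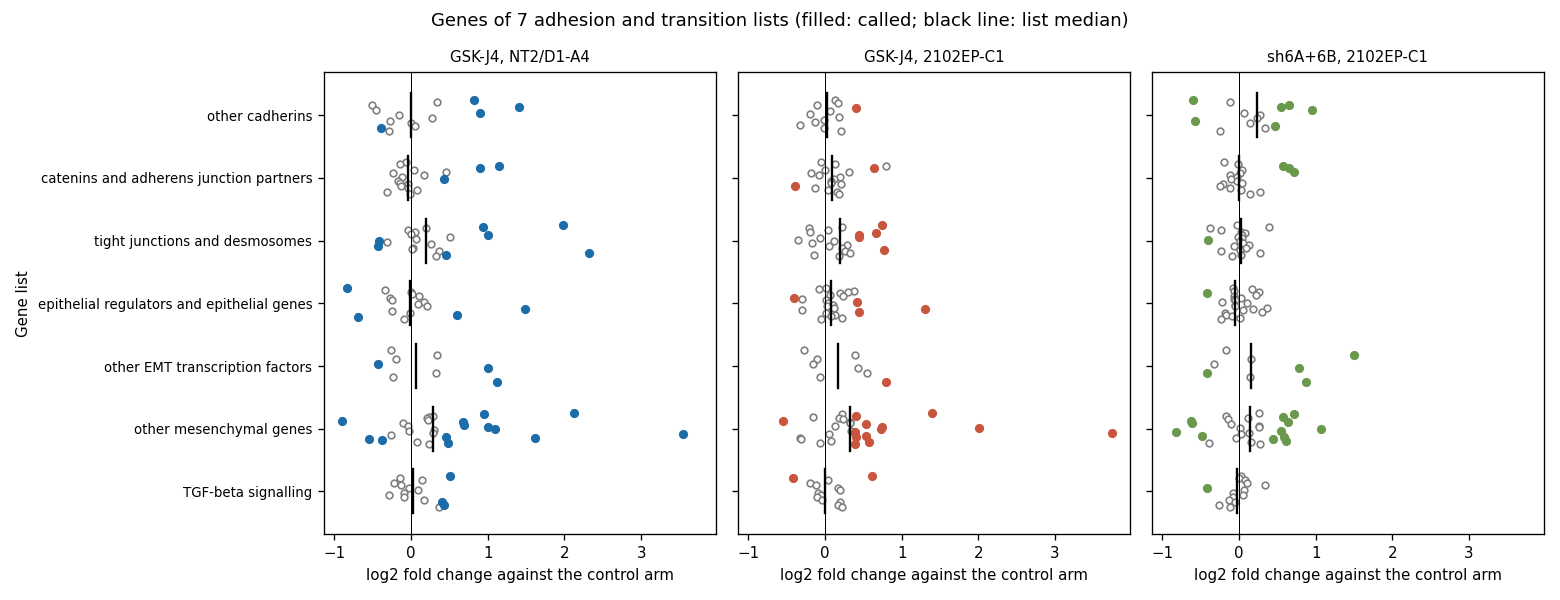
log2 fold changes of the genes of 7 lists with GSK-J4 in both lines and with sh6A+6B in 2102EP-C1 cells, without cisplatin, with 1 point per gene, filled where called, and a black line at the list median. The other mesenchymal genes hold 10, 12 and 8 rises, and single genes such as DDR2 (3.55 and 3.74) and DSC3 (2.32 and 0.77) lie far from their list's median.

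Some markers of other germ cell tumor components rose with GSK-J4 as well. The share of all genes called was 20.3% in NT2/D1-A4, 10.9% in 2102EP-C1 and 12.1% with sh6A+6B. Of 6 trophoblast markers GATA3, HAND1 and TFAP2A were measured and all 3 rose with GSK-J4 in both lines. Their summed level was between 9.11 and 11.2 CPM without and between 16.8 and 19.7 CPM with GSK-J4 for NT2/D1-A4, and between 6.31 and 7.48 and between 12.1 and 12.8 CPM for 2102EP-C1. With sh6A+6B, 2 of the 3 rose and the sum was 4.55 to 5.0 CPM with pLKO.1 and 5.50 to 5.64 CPM with sh6A+6B. Of 8 yolk sac and endoderm markers AFP and GATA4 were measured with GSK-J4, both rose, and their sum went from between 2.22 and 2.85 to between 4.08 and 4.74 CPM for NT2/D1-A4 and from between 0.807 and 1.26 to between 1.82 and 2.13 CPM for 2102EP-C1. These sums are mostly GATA4. AFP was at 0.094 to 0.24 CPM in untreated NT2/D1-A4 cells and 0.58 to 0.60 with GSK-J4. It passed the authors' stated filter of 0.5 CPM there only because of arms with GSK-J4, so its rise was in part a condition of being listed. In untreated 2102EP-C1 cells AFP was at 0.019 to 0.086 CPM, near the floor. It reached 0.426 CPM with GSK-J4 and 0.455 CPM with the combination, so it was listed there without passing the stated 0.5 CPM in any library. How the filter was applied to that table is not known. The defining markers CGA, CGB5, GCM1, SOX17, FOXA2 and APOA1 were sought but are listed in none of the 3 expression tables, so they have no values. GATA4, the yolk sac and endoderm marker measured in the knockdown experiment, was at 0.952 to 1.19 CPM with pLKO.1 and 1.04 to 1.23 CPM with sh6A+6B.

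The 8 embryonal carcinoma markers measured summed to 6202 to 6337 CPM in untreated and 4994 to 5136 CPM in GSK-J4-treated NT2/D1-A4 cells. Their sum in the 2102EP-C1 line was 8506 to 8727 and 7521 to 7599 CPM, and 7946 to 7969 and 7154 to 7219 CPM with pLKO.1 and sh6A+6B. DNMT3B, the de novo DNA methyltransferase, fell with GSK-J4 in both lines (-0.79, SE 0.05; -0.43, SE 0.04) and was the single call among them there. These sums hold markers that moved apart. For NT2/D1-A4, mean DNMT3B was 1726 CPM untreated and 1000 CPM after the inhibitor. POU5F1 (502 to 559 CPM) and TNFRSF8 had higher means, and the other markers lower ones. From pLKO.1 to sh6A+6B, mean DNMT3B went from 2990 to 2342 CPM. SOX2 (275 to 308 CPM), DPPA4 and TNFRSF8 had higher means there, and the other markers lower ones. TNFRSF8 was the single call with sh6A+6B (0.40, SE 0.05, adjusted p = 1e-06). Stromal markers, 3 of 6 measured, summed to 28.5 to 32.0 and 25.7 to 26.5 CPM in NT2/D1-A4 cells and to 81.4 to 86.0 and 77.0 to 84.6 CPM in 2102EP-C1 cells without and with GSK-J4, and 3 of 5 blood and endothelial markers to 51.6 to 56.7 and 50.5 to 51.6, and 61.0 to 64.8 and 52.1 to 55.7 CPM. The stromal sum of NT2/D1-A4 cells holds opposite calls with GSK-J4, as the receptor PDGFRA rose by 0.43 (SE 0.10, adjusted p = 0.0018) and the collagen COL1A2 fell by 0.46 (SE 0.07, adjusted p = 1.5e-05) on the log2 scale. With sh6A+6B the sums were 86.8 to 89.2 and 87.1 to 91.5 CPM for stromal markers and 86.1 to 87.7 and 111 to 118 CPM for blood and endothelial markers. The part of such markers in the changes of the members was not tested.

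Genes with a profile like that of a member were sought over the 9 treated arms, each as its mean minus that of its own control, among 12677 genes with at least 1 CPM in every table. For CDH2 the highest Pearson correlations were those of LINC00941 (0.992), UBE2J1 (0.991) and ZBTB8A (0.983). VIM was closest to SUGT1 (0.981), METTL14 (0.980) and PARVB (0.980), FN1 to GNAZ (0.985), ANKS6 (0.983) and SLC9A8 (0.980), and CDH1 to BRCA1 (0.985), PCM1 (0.975) and SMCHD1 (0.974). CDH6 was under 1 CPM in a table and was left out. Arms of an experiment share their control, so these values over 9 arms are a description only.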

How the data were processed

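Polyadenylated RNA was sequenced as 36 TruSeq Stranded mRNA libraries on an Illumina HiSeq instrument. From the methods and the submitters' processing notes, Trimmomatic (trimming), STAR (alignment, GRCh38.p14) and featureCounts (gene counts) were used, after which the authors removed genes that did not pass 0.5 CPM in 2 or more libraries and scaled by TMM; tool versions and the strand setting of the count are not given in the sources used here. If strand was not used, reads of VIM, ZEB1 and ZEB2 and of their antisense neighbours cannot be told apart. The deposited values are log2 CPM with a prior count of 3, scaled within each table. Under this formula 100% of the values under 50 reads came out within 0.05 of a whole number of reads, which gave the depths and the joint tables. No other per-sample column was used.

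Each table was fitted with limma-trend (limma 3.58.1, R 4.3.3) on its 12 libraries as group means without a block, two-sided, with Benjamini-Hochberg adjustment over all genes. Lines and pretreatments were compared over 15050 genes after 1 TMM scaling of all 36 libraries. Scripts were tested on simulated data with planted changes. Levels per kb used MANE Select lengths of GENCODE release 44, and 95% intervals are from limma. The members, the lists and the tests were chosen with earlier results of these data known, so they are no independent support for a direction. The text names all 10 members, KDM6A and KDM6B, and from each of 14 lists up to 3 rises and 3 falls among genes called without cisplatin with a mean of at least 1 CPM, except some that are not reported here; similar profiles are named for the 4 members called most often that reach 1 CPM in every table. Alternatives were voom, library totals without TMM, a prior count of 0.5, a filter (log2 value over 1 in every library), the replicate number as a block, the compared groups only, leaving out each library, and, added after seeing the data, a joint table of 24 libraries.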

Additional observations from a re-analysis of the deposited data

Results flagged for a closer look

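The responses of the lines to GSK-J4 differed by test in 3 members, with NT2/D1-A4 minus 2102EP-C1 values of -0.83 for CDH1, -0.46 for EPCAM and 0.76 for CDH6 on the log2 scale. In 2102EP-C1 cells the sh6A+6B effect differed from the GSK-J4 effect by 1.08 for CDH6, 0.64 for VIM and -0.51 for CDH1. The effect of cisplatin on FN1 differed between sh6A+6B and pLKO.1 cells by -0.44. All are differences of effects under limma-trend, past a fold of 1.3 and an adjusted p of 0.05, and their causes were not tested.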

How the results depend on the processing

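The main counts of members called kept within 1.5 times under every alternative except for 3 comparisons. With the filter on log2 values over 1, which leaves CDH6 out of both 2102EP-C1 tables, GSK-J4 alone, GSK-J4 within cisplatin and sh6A+6B within cisplatin called 1 member each in place of 2. Leaving out 1 library moved the counts in 2102EP-C1 cells between 1 and 3 for GSK-J4 alone and between 1 and 3 for GSK-J4 within cisplatin, with 3 called in both when GSK-J4 library 3 was left out. CDH3 with GSK-J4 alone in 2102EP-C1 cells ranged from -0.0239 to 0.0617 when 1 library was left out and changed sign without GSK-J4 library 2, with all values under the fold limit. The difference of the cisplatin effects on FN1 in NT2/D1-A4 cells, which was near 0, changed sign with voom (-0.000217), with library totals (-0.0103) and without some libraries (range -0.0688 to 0.0573). Of the other member values, which are not printed, 23 changed sign under some alternative, and the largest of these was 0.156 in size. Replicate numbers are shared between arms but showed no steady pairing of the libraries. Correlations of same-numbered deviations ran from -0.18 to 0.28, -0.13 to 0.10 and -0.17 to 0.31 in NT2/D1-A4, 2102EP-C1 and the knockdown experiment. Their medians were -0.016, -0.0027 and -0.0029, and 5, 2 and 7 of 12 libraries correlated best with their own number. A weak pairing in some libraries is not excluded. With the replicate block, 0 of 18 counts of members called changed, among them 7 members for GSK-J4 alone in NT2/D1-A4 and 2 in 2102EP-C1. Depth limits CDH6 in 2102EP-C1 cells and SNAI2 in both lines, where SNAI2 rested on 4 to 66 reads per library.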
